A study of Sorghum bicolor with 177 samples.

Results

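The genes described here are 4 putative transporters of sorghum (Sorghum bicolor BTx623, the reference line), taken by gene identifier from the 34129 genes of the deposited expression table. They are Sobic.004G224000 and Sobic.005G124600, whose closest Arabidopsis gene in the deposited annotation is YSL7, Sobic.006G053100, whose closest Arabidopsis gene is YSL6, and Sobic.004G273500, whose closest Arabidopsis gene is OPT4. The names with "-like" below stand for that match and not for a tested function. Hydroponic seedlings were acclimated and then moved to 1 of 5 nutrient solutions. Iron limitation had 0 µM NaFe(III)EDTA and iron excess had 1000 µM, both with 1 µM ZnSO4. Zinc limitation had 0 µM ZnSO4 and zinc excess had 100 µM, both with 50 µM NaFe(III)EDTA. The control held 1 µM ZnSO4 and 50 µM NaFe(III)EDTA. The 7 sampling times of roots ran from 0 h and 1 h over 2 d, 4 d, 7 d and 14 d to 21 d. Young leaves of these plants were cut as discs at the same times except 1 h. All plants were of 1 genotype, and the 0 h plants had not yet been moved.

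Yellow stripe-like (YSL) proteins are membrane carriers of metals bound to plant chelators. They belong to the larger oligopeptide transporter (OPT) family, which also holds carriers of short peptides. The founding member, maize YS1, takes up iron bound to phytosiderophores, the mugineic acid chelators that grass roots release, and other YSL proteins move metals bound to nicotianamine between and within cells. In Arabidopsis, YSL6 has been tied to iron handling inside the cell, YSL7 to uptake of a small bacterial peptide compound, and OPT4 to transport of short peptides.

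The values are the authors' mean TPM (an abundance scaled for transcript length and for the library total), 1 mean for each tissue, time and solution. There are 57 means, 31 of roots and 26 of leaves, from 177 libraries (94 root, 83 leaf) of 80 plants in the labels. By the decimals of the values, 51 of the means rest on 3 libraries. Most plants were sampled at 1 time, while 17 root and 3 leaf plants were sampled at 2. In all 5 solutions the roots at 1 h and at 21 d came from the same plants, and plants of zinc excess at 2 d recurred at 7 d. The treatment fits took all times as independent. Read depth cannot be recovered from TPM and is unknown for every value. Because only means were given, the sampling time served as the replicate (6 times in root, 5 in leaf), so every p-value speaks of variation among sampling times, not among plants. The 18 leaf markers (Rubisco small subunit and light-harvesting genes) summed to 24.8 to 87.6 TPM in root columns, and to 61410 to 225780 TPM in leaf columns. Among the root means, the control at 2 d and 4 d, iron limitation at 2 d and iron excess at 7 d lay farthest from the root average (median distance 0.54, 0.43, 0.52 and 0.49 log2 units, against 0.16 to 0.39 for the other 27). In bulk tissue, more cells of a type and more RNA per cell cannot be told apart.

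Under the control solution, 2 of the 4 transporters were higher in root than in leaf. YSL6-like Sobic.006G053100 stood at 27.9, 32.6, 43.1, 25.6, 26.2 and 27.3 TPM in roots at 0 h, 2 d, 4 d, 7 d, 14 d and 21 d, against 10.7, 7.06, 4.10, 5.97, 3.94 and 9.17 TPM in leaves. OPT4-like Sobic.004G273500 stood at 15.5, 5.33, 8.46, 8.49, 7.72 and 12.5 TPM in roots at the same times, against 1.72, 1.83, 2.66, 2.23, 2.26 and 3.33 TPM in leaves. Root and leaf values of these genes did not overlap, and how many of all genes share this was not counted. Their root minus leaf difference was 2.06 ± 0.25 log2 units for Sobic.006G053100 (adjusted p = 5.47e-05) and 1.63 ± 0.21 for Sobic.004G273500 (adjusted p = 0.000101, limma with Benjamini-Hochberg adjustment, standard errors). A difference between these tissues was common: 82.9 percent of the 20595 genes tested passed, and all genes had a median of 1.13 log2 units toward the root. After rescaling the columns to a median log ratio of 0, the differences were 0.99 (adjusted p = 0.00699) and 0.55 (adjusted p = 0.0429).

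The YSL7-like genes did not pass this test. Sobic.004G224000 stood at 21.8, 5.58, 11.5, 24.6, 25.2 and 27.8 TPM in control roots from 0 h to 21 d, against 18.6, 16.9, 16.4, 26.7, 21.96 and 26.2 TPM in control leaves. The tissues overlapped, with root lower at 2 d, 4 d and 7 d, and the difference was -0.26 ± 0.24 log2 units (adjusted p = 0.338). Its call depended on the scale: rescaling gave -1.33 (adjusted p = 0.000871), removing genes above 10000 TPM gave -0.64 (adjusted p = 0.0376), and using all 26 groups sampled in both tissues, treated ones included, gave -0.28 (adjusted p = 0.0436), in a fit where 91.9 percent of 20748 genes passed. Sobic.005G124600 stood at 3.08, 16.9, 12.9, 0.904, 1.27 and 2.60 TPM in control roots, against 2.68, 0.44, 1.55, 1.14, 0.983 and 2.58 TPM in control leaves. Its roots were above its leaves by 38.4 times at 2 d and 8.36 times at 4 d, and the ratio lay between 0.791 and 1.29 at the other 4 times. The difference of 1.04 ± 0.52 log2 units did not pass (adjusted p = 0.0877), became 1.24 with all 26 groups, treated ones included (adjusted p = 0.000566), and was -0.03 after rescaling (adjusted p = 0.967).

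Among the 30 genes annotated as YSL or OPT transporters, the 4 genes had ranks between 3 and 13 by mean TPM. On the TPM scale Sobic.006G053100 had rank 3 in root (mean of 27.7 TPM over 31 columns) and rank 8 in leaf (7.49 TPM over 26 columns). Sobic.004G224000 had rank 5 in both tissues, with 20.5 TPM in root and 24.7 TPM in leaf. Sobic.005G124600 averaged 8.65 TPM in root (rank 13, median 3.66 TPM) and 2.31 TPM in leaf (rank 12). Sobic.004G273500 averaged 9.99 TPM in root (rank 11) and 2.31 TPM in leaf (rank 13). In leaf these were the lowest of the 13 family genes with a mean of at least 1 TPM. The highest root level belonged to Sobic.004G299500, annotated as similar to the phytosiderophore transporter yellow stripe 1, with 191 TPM in root and 0.0091 TPM in leaf. The highest leaf mean belonged to OPT3-like Sobic.001G087700, related to an Arabidopsis phloem iron transporter, with 167 TPM in root and 354 TPM in leaf. By the median of the leaf columns YSL3-like Sobic.006G164300 (90.8 TPM) lay above it (69.4 TPM). The neighbouring identifier Sobic.004G273400, also OPT4-like, averaged 10.4 TPM in root and 0.126 TPM in leaf. Of the 30 family genes, 17 were tested between tissues, 10 were higher in root and 3 lower, where 82.9 percent of all genes passed, with a median difference of 1.04 against 1.13 for all genes. After rescaling 5 family genes were higher in root and 6 lower, and over all genes the split was 7045 higher and 6934 lower, against 13445 higher and 3620 lower before.

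**Figure D1:**
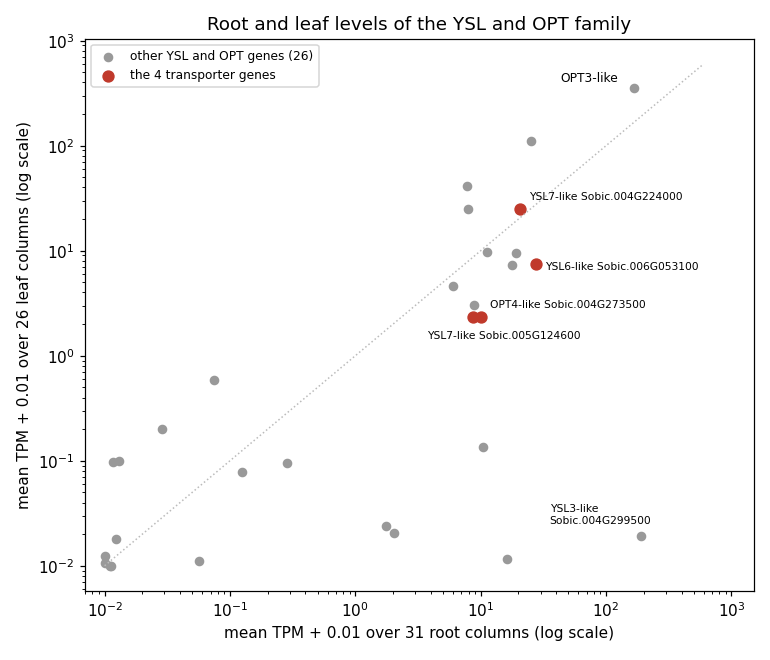
Mean TPM of the 30 YSL and OPT genes over 31 root columns (x axis) and 26 leaf columns (y axis), both on log scales after adding 0.01, with the 4 transporters in red and the other 26 genes in grey. Points right of the dotted line are higher in root; Sobic.006G053100 (27.7 TPM in root, 7.49 TPM in leaf) lies right of it and Sobic.004G224000 (20.5 and 24.7 TPM) close to it.

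In leaves without iron, 2 of the 4 genes stood above the control late in the course. YSL7-like Sobic.004G224000 stood at 25.1, 17.2, 74.7, 57.8 and 48.6 TPM in iron-limited leaves at 2 d, 4 d, 7 d, 14 d and 21 d, against 16.9, 16.4, 26.7, 21.96 and 26.2 TPM in control leaves. The 3 late iron-limited means were the highest of all 26 leaf columns, the other 23 lying between 11.8 and 26.7 TPM. How many of all genes separate these columns in the same way was not counted. Sobic.004G224000 was 2.80 times the control at 7 d, 2.63 times at 14 d and 1.86 times at 21 d. Over the 5 times it rose by 0.86 ± 0.23 log2 units (adjusted p = 0.0355, limma with Benjamini-Hochberg adjustment), higher at 5 of 5 times. The difference averaged 0.31 up to 4 d and 1.22 from 7 d, and this late minus early change of 0.92 ± 0.33 did not pass (adjusted p = 0.112). The call over 5 times was lost without 7 d (0.71, adjusted p = 0.194), without 14 d (0.73, adjusted p = 0.197) and without 21 d (0.86, adjusted p = 0.129). It was also lost with no filter on low values (adjusted p = 0.0634) and with only iron-limited and control columns (adjusted p = 0.114). In all these fits few or none of all genes passed, against 1475 in the main fit (counts are in the closing section).

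YSL6-like Sobic.006G053100 showed a difference that depended on time. It stood at 5.42, 3.30, 13.5, 21.3 and 29.6 TPM in iron-limited leaves from 2 d to 21 d, against 7.06, 4.10, 5.97, 3.94 and 9.17 TPM in control leaves. Iron-limited leaves were thus below the control at 2 d and 4 d and above it at 7 d, 14 d and 21 d, by 2.26, 5.41 and 3.23 times. The other 23 leaf columns, including the control at 0 h, lay between 3.03 and 10.7 TPM. The share of all genes with such a separation was not counted. The fitted difference was -0.29 up to 4 d and 1.61 from 7 d, and the late minus early change of 1.89 ± 0.43 log2 units passed (adjusted p = 0.0245). The average over all 5 times, 0.85 ± 0.30, did not (adjusted p = 0.0697, higher at 3 of 5 times). In a fit of 7 d, 14 d and 21 d only, chosen after the values were seen, both genes passed, with 1.61 ± 0.29 for Sobic.006G053100 (adjusted p = 0.00323) and 1.22 ± 0.23 for Sobic.004G224000 (adjusted p = 0.00395). In that fit 27.0 percent of all 17067 genes passed, so a call there was common. The late minus early call of Sobic.006G053100 was lost after rescaling (1.46, adjusted p = 0.135), without genes above 10000 TPM (1.76, adjusted p = 0.0516), with the boundary after 7 d (1.72, adjusted p = 0.163) and without 2 d, 4 d or 14 d (adjusted p = 0.271, 0.262 and 0.105).

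The other 2 genes showed no such pattern in leaves without iron. Sobic.005G124600 stood at 1.33, 0.575, 0.388, 3.04 and 5.08 TPM in iron-limited leaves, against 0.44, 1.55, 1.14, 0.983 and 2.58 TPM in control leaves, a difference of 0.23 ± 0.36 log2 units (adjusted p = 0.652). OPT4-like Sobic.004G273500 stood at 1.24, 2.32, 1.93, 2.46 and 2.97 TPM in iron-limited leaves, against 1.83, 2.66, 2.23, 2.26 and 3.33 TPM in control leaves, a difference of -0.13 ± 0.18 (adjusted p = 0.620). Both genes lie low in leaves, where adding 1 TPM before taking logs understates a fold change. In all, 1 of the 4 genes passed for iron limitation in leaf, where 8.64 percent of 17067 genes passed. For late minus early 1 of the 4 passed, against 3.51 percent of all genes, whose median difference was 0.45 log2 units.

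The late iron-limited leaves differed from control leaves in much of the transcriptome. At 7 d, 14 d and 21 d, 34.4, 26.4 and 12.2 percent of genes were at least 2-fold higher than the control with at least 5 TPM in the higher mean, and the median over all genes and the 5 times was a difference of 0.24 log2 units. The 18 leaf markers made up 13.8, 8.69 and 6.23 percent of the TPM in iron-limited leaves at 7 d, 14 d and 21 d, against 22.6, 16.3 and 12.7 percent in control leaves. At 21 d the share was 6.41 percent in zinc limitation and 6.14 percent in zinc excess. There Sobic.006G053100 stood at 5.001 and 7.09 TPM and Sobic.004G224000 at 21.6 and 20.5 TPM, none above the control. In iron excess at 21 d the share was 9.86 percent. Sobic.006G053100 stood there at 10.7 TPM (control 9.17 TPM) and Sobic.004G224000 at 26.1 TPM (control 26.2 TPM). Whether the marker share and these levels are linked was not tested. After rescaling to a median log ratio of 0, Sobic.004G224000 still passed (0.62 ± 0.17, adjusted p = 0.0366), whereas Sobic.006G053100 was at 0.62 (adjusted p = 0.159). FER4-like Sobic.008G004800, a ferritin that stores iron, stood at 119, 17.2, 4.59, 4.32 and 1.80 TPM in iron-limited leaves from 2 d to 21 d, against 145, 53.2, 142, 183 and 332 TPM in control leaves.

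**Figure D2:**
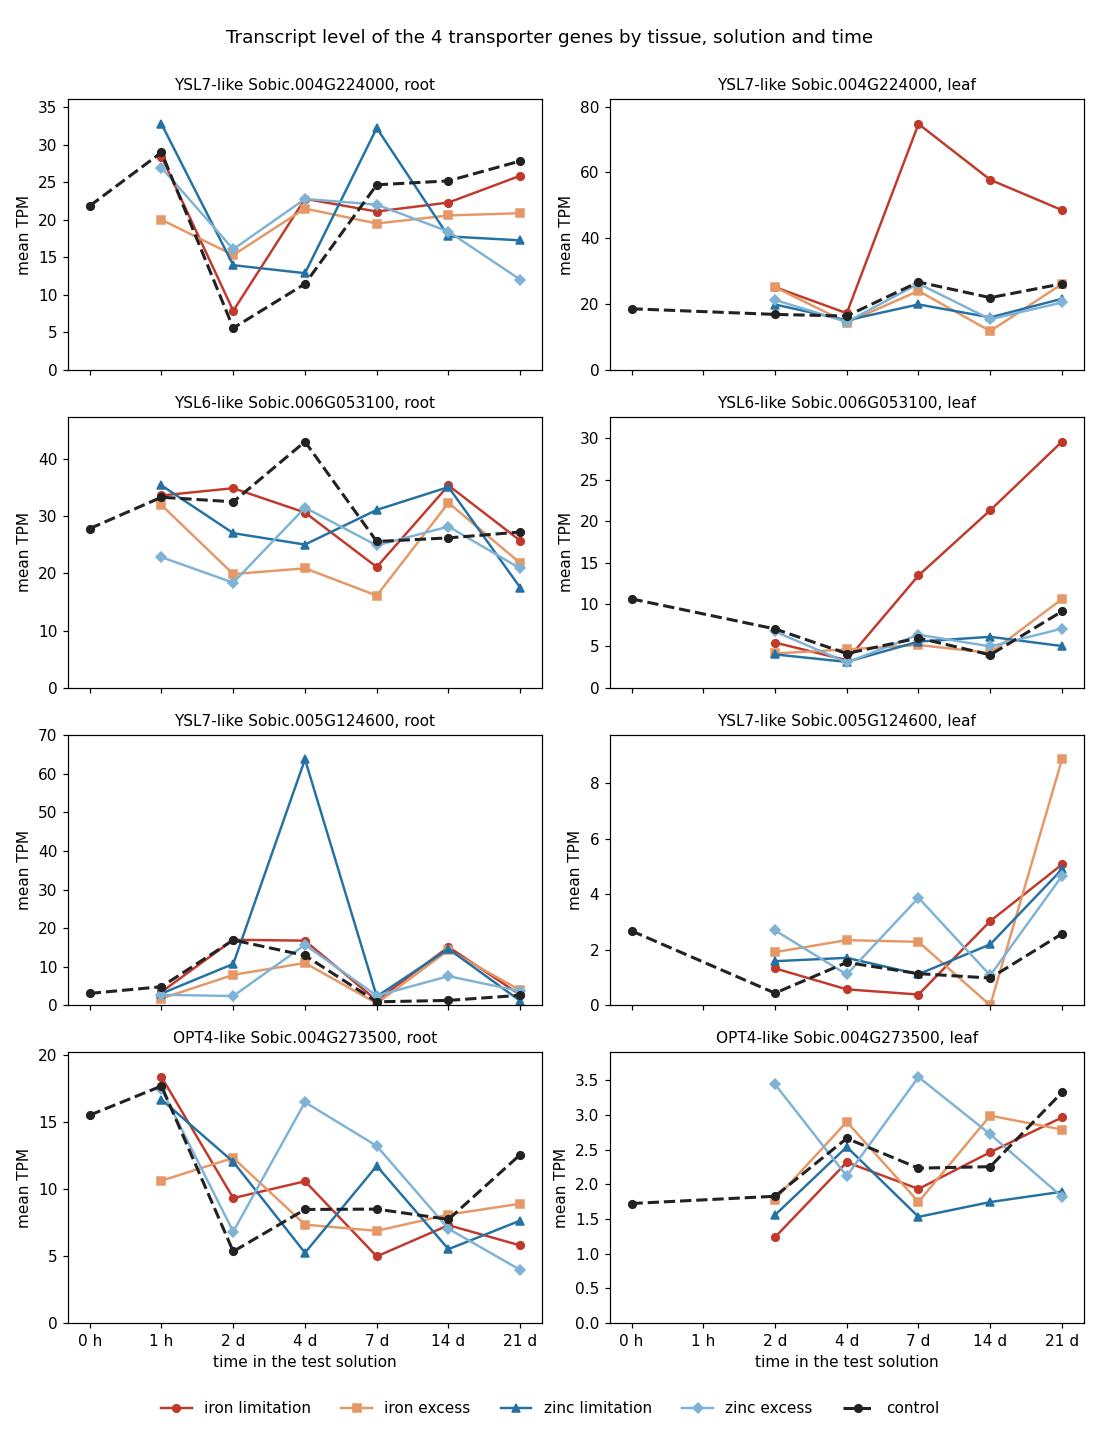
Mean TPM (y axes, each from 0) of the 4 transporters at each time in the test solution (x axis, unevenly spaced times) in root (left) and leaf (right), with 1 line per solution and the control dashed. In leaves the iron-limited line of Sobic.004G224000 (48.6 to 74.7 TPM) and of Sobic.006G053100 (13.5 to 29.6 TPM) leaves the other lines from 7 d on; no root panel shows this.

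The level of each gene under each solution, as mean ± SD over the sampling times after 0 h (6 in root, 5 in leaf), put most solutions close together. In leaf Sobic.004G224000 averaged 44.7 ± 23.6 TPM in iron limitation, 20.3 ± 6.67 in iron excess, 18.5 ± 2.81 in zinc limitation and 19.6 ± 4.74 in zinc excess, against 21.6 ± 4.92 in the control. In leaf Sobic.006G053100 averaged 14.6 ± 10.99 TPM in iron limitation, 5.73 ± 2.78 in iron excess, 4.75 ± 1.21 in zinc limitation and 5.64 ± 1.67 in zinc excess, against 6.05 ± 2.18 in the control. Iron limitation was thus the highest solution of both genes in leaf, with the control next. In root Sobic.006G053100 averaged 30.3 ± 5.73 TPM in iron limitation, 23.9 ± 6.74 in iron excess, 28.6 ± 6.84 in zinc limitation and 24.5 ± 4.83 in zinc excess, against 31.4 ± 6.63 in the control. Root means of Sobic.004G224000 lay between 19.6 and 21.4 TPM in the treatments, against 20.6 ± 9.68 TPM in the control. Root means of Sobic.005G124600 lay between 5.75 ± 5.24 (zinc excess) and 15.9 ± 24.0 TPM (zinc limitation), against 6.57 ± 6.73 TPM in the control. Those of Sobic.004G273500 lay between 9.01 and 10.8 TPM in the treatments, against 10.04 ± 4.40 TPM in root controls. For none of the 4 genes, in either tissue, did neighbours in the order of solutions differ by more than both of their SDs.

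Other genes of the family were mixed in leaves without iron. Of the 30 family genes 13 were tested in leaf, 3 rose and 1 fell, and their median of 0.23 log2 units lay beside 0.24 for all genes. Over all genes 8.64 percent passed, 1155 higher and 320 lower, a split that became 600 higher and 698 lower after rescaling. Beside Sobic.004G224000, the genes that rose were OPT3-like Sobic.001G087700 (2.94 ± 0.88, adjusted p = 0.0449) and OPT7-like Sobic.010G015500 (1.18 ± 0.36, adjusted p = 0.0466). A further YSL7-like gene, Sobic.006G152500, fell by 1.07 ± 0.32 (adjusted p = 0.0457), lower at 5 of 5 times. The neighbouring YSL6-like identifier Sobic.006G053200 stood at 4.66, 5.11 and 4.14 TPM in iron-limited leaves at 7 d, 14 d and 21 d, against 2.52, 2.74 and 3.49 TPM in control leaves, and did not pass (0.28 ± 0.21, adjusted p = 0.329). Reads of such paired copies can be shared, and how the counting split them is not given in the sources used here. Among the 4 genes for making nicotianamine and deoxymugineic acid, the chelators that YSL carriers are known to use, 3 were tested and, beside the same 8.64 percent of all genes, 1 fell, the nicotianamine synthase NAS4-like Sobic.001G151400 (fell by 0.94 ± 0.23, adjusted p = 0.0290). Each of these calls was lost without 7 d, 14 d or 21 d, when 0 of the family genes and few or none of all genes passed. The calls of OPT3-like Sobic.001G087700 and OPT7-like Sobic.010G015500 were also lost after rescaling (adjusted p = 0.0567 and 0.0880). The family genes that passed after rescaling were Sobic.004G224000, higher, Sobic.006G152500, lower (-1.30, adjusted p = 0.0320), and YSL3-like Sobic.006G164300, lower (-0.69, adjusted p = 0.0393).

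Iron excess and the zinc solutions gave no call among the 4 genes in leaf. Few genes passed at all: 0 percent for iron excess, 0 percent for zinc limitation and 0.0293 percent for zinc excess. At an unadjusted p under 0.05, 518 genes were found for iron excess, 192 for zinc limitation and 2059 for zinc excess. Sobic.004G273500 under zinc limitation stood at 1.56, 2.54, 1.53, 1.75 and 1.89 TPM from 2 d to 21 d, against 1.83, 2.66, 2.23, 2.26 and 3.33 TPM in control leaves. It was below the control at 5 of 5 times, by 0.27 ± 0.18 log2 units, which did not pass (log2 difference -0.27, adjusted p = 0.9999). Sobic.005G124600 was above the control at 4 of 5 times in iron excess (0.50 ± 0.36), zinc limitation (0.47 ± 0.36) and zinc excess (0.60 ± 0.36, adjusted p = 0.420), measured against the same control columns, and none of these 3 differences passed. Its level in iron-excess leaves was listed at 0 at 14 d and was 8.87 TPM at 21 d, the lowest and the highest of its 26 leaf columns.

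In roots none of the 4 genes passed in any of the 4 treatments. The share of all genes that passed was 0 percent for iron limitation, 0 percent for iron excess, 0.00976 percent for zinc limitation and 1.39 percent for zinc excess, of 20500 genes tested. At an unadjusted p under 0.05 there were 101 genes for iron limitation, 1536 for iron excess, 1299 for zinc limitation and 2859 for zinc excess. Iron-limited roots held Sobic.006G053100 at 33.7, 34.95, 30.7, 21.1, 35.4 and 25.8 TPM from 1 h to 21 d, against 33.4, 32.6, 43.1, 25.6, 26.2 and 27.3 TPM in control roots. The values overlapped, and the difference was -0.05 ± 0.16 log2 units (adjusted p = 0.9999). Iron-limited roots held Sobic.004G224000 at 28.4, 7.87, 22.8, 21.1, 22.3 and 25.8 TPM, against 28.95, 5.58, 11.5, 24.6, 25.2 and 27.8 TPM in control roots, with a difference of 0.14 ± 0.24 (adjusted p = 0.9999).

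Root Sobic.006G053100 lay below the control at 5 of 6 times in iron excess and at 5 of 6 times in zinc excess. It stood at 31.99, 19.9, 20.9, 16.1, 32.4 and 21.8 TPM in iron-excess roots from 1 h to 21 d and at 22.9, 18.4, 31.5, 24.9, 28.2 and 20.9 TPM in zinc-excess roots. In iron excess at 7 d the most abundant genes held 35.5 percent of the TPM. The same number of genes held 4.27 to 7.74 percent in the other root columns. There 5.9 percent of genes were at least 2-fold lower than the control and 0.258 percent higher. The part of this in the value of 16.1 TPM was not tested. The differences from the control values given above were -0.40 ± 0.16 (unadjusted p = 0.0200 in limma, adjusted p = 0.654) and -0.34 ± 0.16 (adjusted p = 0.336), and neither passed. Both share the same control means, and the control at 4 d (43.1 TPM) was the highest of the 31 root columns of this gene. The fitted differences were -0.58 (iron excess) and -0.59 (zinc excess) up to 4 d, and -0.22 and -0.10 from 7 d. OPT4-like Sobic.004G273500 ranged between 3.96 and 18.3 TPM over the 31 root columns, and its 4 differences lay between -0.12 ± 0.27 (iron limitation) and 0.03 ± 0.27 (zinc excess). Its lowest root value, 3.96 TPM in zinc excess at 21 d, was 0.315 times the control of that time (12.5 TPM).

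**Figure D3:**
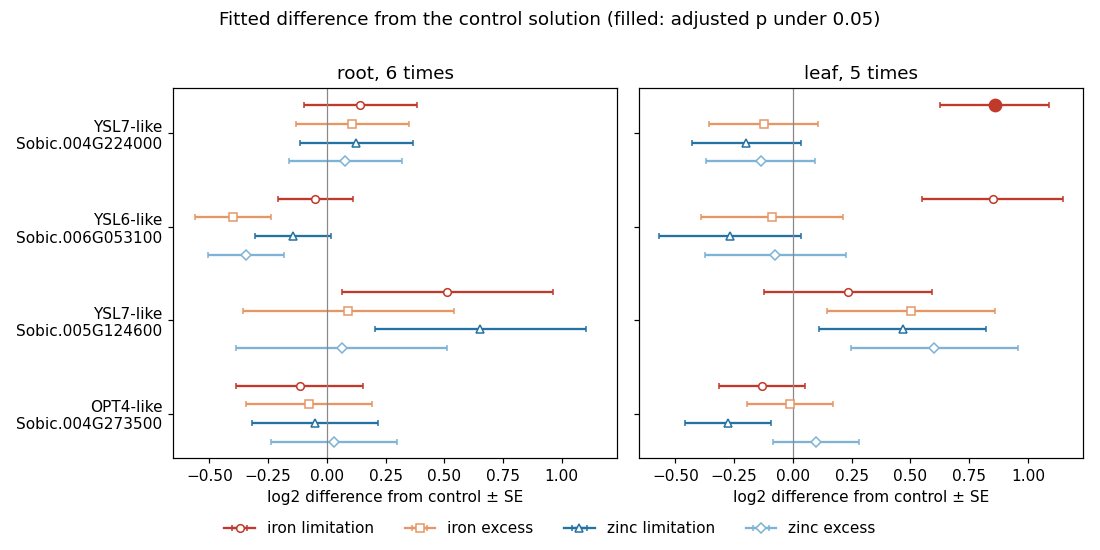
Fitted log2 difference from the control (x axis, points with SE) for each transporter and treatment, in root over 6 times (left) and leaf over 5 times (right); filled points passed an adjusted p of 0.05. The 1 filled point is Sobic.004G224000 under iron limitation in leaf (0.86 ± 0.23), with Sobic.006G053100 beside it at 0.85 ± 0.30 and open.

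The difference between tissues in the response to iron limitation was tested directly and did not pass for any of the 4 genes. The root minus leaf difference was -0.91 ± 0.34 for Sobic.006G053100 (adjusted p = 0.206) and -0.68 ± 0.33 for Sobic.004G224000 (adjusted p = 0.304). It was 0.46 ± 0.63 for Sobic.005G124600 and -0.02 ± 0.34 for Sobic.004G273500. In this comparison 0.103 percent of 15522 genes passed, and a difference between the tissues is not shown for these genes.

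YSL7-like Sobic.005G124600 had the widest span of the 4 in roots, from 0.495 to 63.7 TPM, and varied with the sampling time. Over all solutions it lay between 1.76 and 4.82 TPM at 1 h, 2.40 and 16.98 TPM at 2 d, 10.97 and 63.7 TPM at 4 d, 0.495 and 2.48 TPM at 7 d, 1.27 and 15.1 TPM at 14 d, and 1.15 and 3.90 TPM at 21 d. Every root mean at 4 d was thus above every root mean at 1 h, 7 d and 21 d, while the values at 4 d overlapped with those at 2 d and 14 d. How many of all genes separate these times in the same way was not counted. Its lowest value, 0.495 TPM, came from iron excess at 7 d, where the most abundant genes held 35.5 percent of the TPM. Its highest value, 63.7 TPM in zinc limitation at 4 d, was 4.93 times the control of that time (12.9 TPM), where 10.7 percent of genes were at least 2-fold higher. At 14 d it stood at 15.1 TPM in iron limitation, 14.3 TPM in iron excess, 14.6 TPM in zinc limitation and 7.55 TPM in zinc excess, against 1.27 TPM in the control. These 4 values lie above 1 shared control mean, and 3.59, 5.31, 7.62 and 5.19 percent of genes were at least 2-fold higher in the same comparisons. The means of zinc limitation and zinc excess at 14 d rest on 2 libraries each. The average over times did not pass for any treatment, the widest differences being 0.65 ± 0.45 for zinc limitation (adjusted p = 0.782) and 0.51 ± 0.45 for iron limitation (adjusted p = 0.9999).

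Sobic.004G224000 ran partly the other way in roots. It had its lowest root value in the control at 2 d (5.58 TPM) and stood between 5.58 and 16.1 TPM at 2 d over all solutions, against 19.5 to 32.2 TPM at 7 d. The share of all genes that separate 2 d from 7 d in this way was not counted. At 2 d it was 2.74 times the control in iron excess (15.3 TPM), 2.50 times in zinc limitation (13.9 TPM) and 2.88 times in zinc excess (16.1 TPM), and 1.41 times in iron limitation (7.87 TPM). Of all genes, 19.4, 14.1 and 23.5 percent were at least 2-fold higher than the control at 2 d in iron excess, zinc limitation and zinc excess. These ratios share the control mean at 2 d, the root mean farthest from the root average, and the part of that mean in them was not tested. Without 2 d and 4 d together, a choice made after the values were seen, all 4 root differences of this gene lay below 0, between -0.46 (zinc excess) and -0.13 (iron limitation), and none passed.

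**Figure D4:**
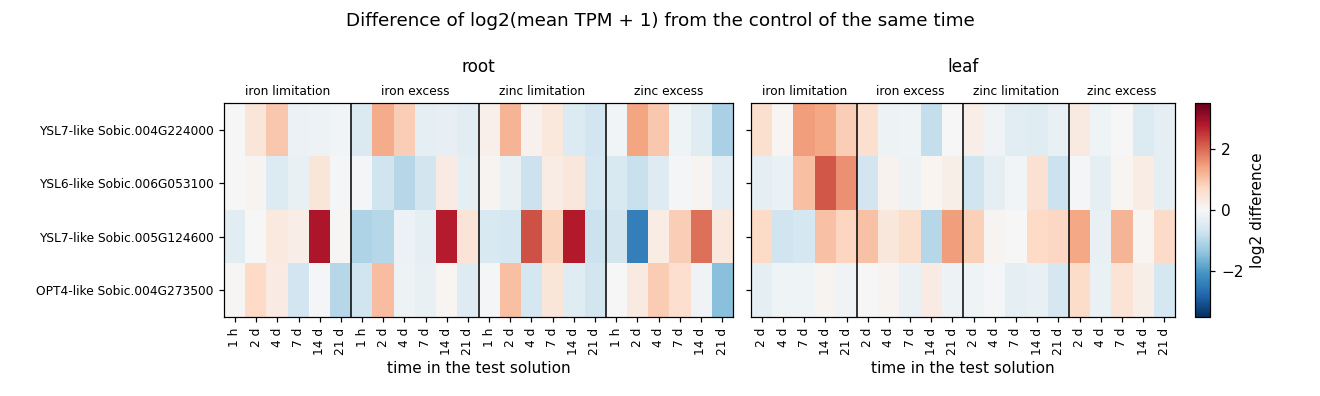
Difference of log2(mean TPM + 1) from the control of the same tissue and time (colour) for the 4 transporters (down the page) at each time of each treatment, in root (left) and leaf (right). In leaf the deepest red cells at 7 d, 14 d and 21 d of iron limitation belong to Sobic.004G224000 and Sobic.006G053100; in root the red cells at 14 d of Sobic.005G124600 stand in all 4 treatments, which share 1 control mean of 1.27 TPM.

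Counted over single times, 16 of 84 root comparisons of the 4 genes with at least 5 TPM in the higher mean were 2-fold or more from the control (10 higher, 6 lower), against 12.1 percent over all genes. In leaf, 6 of 36 such comparisons were 2-fold or more higher and 0 lower, against 11.8 percent of all genes in either direction. Of the 6, 5 were the late iron-limited means of Sobic.004G224000 and Sobic.006G053100. A comparison with 1 mean below 5 TPM entered only through its higher mean, so its direction was fixed by the filter. In root this holds for Sobic.005G124600 at 14 d (control 1.27 TPM). In leaf it holds for Sobic.006G053100 at 14 d (control 3.94 TPM) and Sobic.005G124600 at 21 d (control 2.58 TPM). The split into higher and lower is therefore not a result about these genes. These counts rest on shared controls and on single means with no test.

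Across the 26 leaf columns, log2(mean TPM + 1) of Sobic.004G224000 and Sobic.006G053100 correlated with Pearson's r of 0.78 (Spearman's rho 0.62), and without the 3 late iron-limited columns with r of 0.46 (rho 0.46, 23 columns). Across the 31 root columns the r of this pair was -0.02. In root Sobic.004G224000 correlated at -0.48 with Sobic.005G124600 and at 0.51 with OPT4-like Sobic.004G273500. The columns share sampling times and controls, so these values only describe this table.

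The genes closest in pattern to each transporter, by Pearson's r over the columns of a tissue among genes of at least 5 TPM, follow here. For Sobic.004G224000 they were XBAT32-like Sobic.007G092600 (r = 0.94), ureide permease UPS2-like Sobic.008G104500 (0.92) and XBAT33-like Sobic.001G322000 (0.92) in root. In leaf they were Sobic.003G045600, a pyridoxal phosphate-dependent transferase (0.91), the NB-ARC domain gene Sobic.005G218400 (0.90) and the arabinofuranosidase ARAF1-like Sobic.001G389800 (0.89). For Sobic.006G053100 the closest were the autophagy gene ATG18H-like Sobic.009G133500 (0.84), Sobic.005G096000 (0.82) and Sobic.009G005500 (0.82) in root, and Sobic.001G093600 (0.93), Sobic.006G214400 (0.93) and Sobic.006G204200 (0.92) in leaf. For Sobic.005G124600 they were a MATE efflux gene, Sobic.002G286800 (0.90), the plastid chaperone cpHsc70-2-like Sobic.001G129000 (0.88) and Sobic.001G146800 (0.88) in root, and in leaf none of its 3 closest exceeded 0.85. For Sobic.004G273500 they were Sobic.003G242900 (0.89), GONST3-like Sobic.001G456100 (0.88) and the reticulon gene Sobic.001G068700 (0.87) in root, and in leaf NADK2-like Sobic.005G068700 led with 0.80. Ranked by Spearman's rho instead, 10 of the 24 closest genes were the same, and OPT7-like Sobic.010G017100 came first for Sobic.004G224000 in root (rho 0.91).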

How the data were processed

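Total RNA was made into poly-A selected directional libraries and sequenced as paired ends, per the labels' protocols. The authors deposited 1 mean TPM per tissue, time and solution. DRAGEN is named in the submitters' processing notes, with its release, the genome build and the annotation version not given in the sources used here. For 8 columns the deposited values were recorded as signal because repeated gene lines lift their sum, and they are the same mean TPM. Of 34924 lines, 795 repeats of 429 genes were dropped. For 3 root means the number of libraries read from the decimals differs from the labels. These are zinc excess at 2 d (3 against 2 in the labels), zinc excess at 7 d (4 against 5) and iron excess at 7 d (3 against 2).

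Values were taken as log2(mean TPM + 1) and genes needed a mean of at least 1 TPM. limma 3.58.1 (R 4.3.3) was fitted on all genes with time and treatment as terms and a variance trend, with Benjamini-Hochberg adjustment and a threshold of 0.05. Early means up to 4 d. The fit was tested on simulated data. Figures used Python 3.11.15 with pandas 2.3.3, numpy 2.4.6 and matplotlib 3.10.9. Alternatives varied the pseudocount (0.1 TPM), filter (none or 5 TPM), scaling, removal of the 32 genes above 10000 TPM, trend, columns fitted, boundary and times. Named genes were the 4 transporters, family and chelator genes that passed a treatment effect, neighbouring copies, iron-status genes and the 3 closest genes in pattern; Sobic.004G299500, Sobic.004G273400, Sobic.006G053200, Sobic.006G164300, Sobic.010G017100 and the root ratios at 2 d were added with their values already known. The members, lists and comparisons were chosen with earlier results of these data known. A list of Casparian strip markers matched 0 genes, so roots were checked by the leaf markers.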

Additional observations from a re-analysis of the deposited data

Results flagged for a closer look

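The effect of iron limitation on YSL6-like Sobic.006G053100 in leaf differed between the early and the late times by 1.89 log2 units in a direct test of that difference (limma, adjusted p = 0.0245). Iron-limited leaves were below the control at 2 of 2 early times and above it at 3 of 3 late times. Over all genes 3.51 percent passed this test, with a median difference of 0.45 log2 units. The call was lost after rescaling and in the other alternatives named in the Results.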

How the results depend on the processing

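For the 44 tested results of the 4 genes, 579 alternative values were computed: 507 kept their direction and side of the threshold, 11 lost a call, 8 gained one and 53 turned in direction. For 6 calls of other named genes in iron-limited leaf, 39 of 77 alternative values kept the call and 38 lost it. None of the turned values belonged to a result that passed, and none passed itself; the cause was not tested. Calls for iron limitation in leaf fell to 0 of the 4 genes with no filter and with only iron-limited and control columns, and rose to 2 with only 7 d, 14 d and 21 d; leaving out 1 time gave 0 to 2. Family calls there (4) became 0 with no filter, 2 without genes above 10000 TPM, 0 with only iron-limited and control columns, and 0 to 6 leaving out 1 time. For late minus early the count was 0 after rescaling, 0 without genes above 10000 TPM, 0 with the boundary after 7 d, and 0 to 2 leaving out 1 time. Between root and leaf, 4 passed with all 26 groups, treated ones included, where 19075 of 20748 genes passed. All genes called for iron limitation in leaf numbered 1475 (1155 higher, 320 lower), 1298 after rescaling (600 higher, 698 lower), 7 with no filter, 9 with only iron-limited and control columns, 4616 with the late times only, 2083 without 2 d, 2529 without 4 d, 2 without 7 d, 0 without 14 d and 0 without 21 d. Late minus early gave 599, 401 after rescaling, 30 with the boundary after 7 d, and 21 to 1871 leaving out 1 time.

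Sobic.004G273500, iron limitation root minus leaf, gave 0.023 with a pseudocount of 0.1 TPM, 0.23 after rescaling and 0.088 without genes above 10000 TPM, and -0.28 to 0.20 leaving out 1 time. Rescaling gave -0.000548 for Sobic.005G124600 in iron-limited leaf, -0.26 and -0.052 for late minus early of Sobic.004G273500 and Sobic.005G124600, -0.12 for Sobic.004G273500 in zinc-excess leaf and -0.028 for Sobic.005G124600 between tissues. Removing genes above 10000 TPM gave 0.00904 for Sobic.004G273500 in iron-excess root. The late times alone gave 0.025 in iron-excess and 0.00618 in zinc-excess leaf for Sobic.006G053100. In root, the late times alone and leaving out 2 d and 4 d together, both added after the data were seen, gave for Sobic.004G224000 -0.16 and -0.13 (iron limitation), -0.33 and -0.38 (iron excess), -0.26 and -0.15 (zinc limitation) and -0.58 and -0.46 (zinc excess). They gave -0.33 and -0.25 for Sobic.004G273500 in zinc excess, and for Sobic.006G053100 0.025 and 0.022 in iron limitation and 0.024 and 0.039 in zinc limitation.

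Leaving out 1 time in turn, leaf iron excess ranged from -0.29 to 0.056 for Sobic.004G224000, -0.090 to 0.042 for Sobic.004G273500 and -0.16 to 0.053 for Sobic.006G053100. Leaf zinc excess of Sobic.004G273500 ranged from -0.041 to 0.28, and late minus early of Sobic.005G124600 from -0.31 to 1.08. In root, Sobic.004G224000 ranged from -0.016 to 0.21 (iron limitation), -0.13 to 0.23 (iron excess), -0.088 to 0.28 (zinc limitation) and -0.18 to 0.32 (zinc excess). Root Sobic.004G273500 ranged from -0.28 to 0.060, -0.31 to 0.044, -0.27 to 0.071 and -0.14 to 0.33 in the same order, root Sobic.005G124600 from -0.44 to 0.32 in iron excess and -0.31 to 0.55 in zinc excess, and root Sobic.006G053100 from -0.14 to 0.037 in iron limitation. Sobic.005G124600 and Sobic.004G273500 have no leaf value with a filter of 5 TPM, being below it. No paired analysis was possible because the table holds means and no single libraries with replicate numbers. Depth is unknown, so values near 1 TPM are the least certain.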
